A study of Mus musculus with 2 samples.

Results

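The newborn mouse hindbrain expressed 5 microRNA (miRNA) genes that lie in introns of metabolic genes. They are Mir103-1, Mir103-2 and Mir107, in introns of the pantothenate kinase genes Pank3, Pank2 and Pank1, Mir33, in an intron of Srebf2, and Mir378a, in an intron of Ppargc1b. They were chosen by name and host gene, and 4 of them are among the 1973 miRNA genes listed in the tables. Mir378a has no entry of its own and was read from the opposite strand of Gm25301, an annotated miRNA gene that covers it. MicroRNA-seq measured RNA of under 30 nucleotides in the single hindbrains of 2 pups of strain B6NCrl at postnatal day 0. Pup 3 is biological replicate 2 and pup 1 is replicate 1, and the labels give both pups 1 shared donor identifier and no sex. The labels name no treatment, so the series holds 1 group and no contrast between conditions. A comparison of the pups is one of 2 libraries, and its p-values cover counting error only.

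A miRNA in an intron is often made from the primary transcript of its host. It is cut out as a hairpin, from which 1 or both arms are kept as mature strands that lower the output of target mRNAs. Bases 2 to 8 of the mature strand, the seed, choose most targets. Pantothenate kinases carry out the first step of coenzyme A synthesis, and the miR-103 and miR-107 strands from their introns are known to lower insulin sensitivity in mouse liver and fat. Srebf2 encodes SREBP2, the transcription factor that switches on cholesterol synthesis and uptake, and miR-33 from its intron lowers the cholesterol exporter Abca1. Ppargc1b encodes PGC-1beta, a coactivator of mitochondrial and lipid genes, and miR-378a is known from muscle and fat, where it affects mitochondrial metabolism.

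The 4 hairpins with an own entry are shown because their letters decide which reads can be given to which gene. They are from RefSeq on GRCm38.p6, written 5′ to 3′ on the gene's strand, with the annotated mature arms in capitals (5p arm first, 3p arm second).
Mir103-1: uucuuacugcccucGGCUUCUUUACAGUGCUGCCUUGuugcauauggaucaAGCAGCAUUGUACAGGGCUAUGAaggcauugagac
Mir103-2: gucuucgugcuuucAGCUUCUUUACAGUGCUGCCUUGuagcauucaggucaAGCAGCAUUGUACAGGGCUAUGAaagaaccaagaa
Mir107: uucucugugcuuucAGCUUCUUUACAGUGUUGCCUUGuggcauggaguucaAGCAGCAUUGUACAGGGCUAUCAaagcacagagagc
Mir33: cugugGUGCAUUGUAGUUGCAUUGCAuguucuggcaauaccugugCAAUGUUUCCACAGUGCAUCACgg

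Mir103-1 lies on the plus strand at chr11:35782396-35782481, in intron 5 of the 6 introns of Pank3. Mir103-2 lies on the plus strand at chr2:131288052-131288137, in intron 5 of 6 of Pank2. Mir107 lies on the minus strand at chr19:34820687-34820773, also in intron 5 of 6, of Pank1. All 3 thus keep the same intron number in their hosts, 688, 454 and 326 bases after the upstream exon for Mir103-1, Mir103-2 and Mir107. Mir33 lies on the plus strand at chr15:82198122-82198190, in intron 16 of 18 of Srebf2, 335 bases after the upstream exon. Each of these 4 is on its host's strand, and no annotated host transcript has an exon over any of them (coordinates and introns from GENCODE M21 on GRCm38).

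The mature strands are shown next with their seeds in capitals, because the seeds group the genes.
miR-103-3p: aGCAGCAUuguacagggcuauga
miR-107-3p: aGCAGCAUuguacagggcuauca
miR-103-1-5p: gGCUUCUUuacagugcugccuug
miR-103-2-5p: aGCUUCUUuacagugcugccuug
miR-107-5p: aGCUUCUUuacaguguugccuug
miR-33-5p: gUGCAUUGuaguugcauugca
miR-33-3p: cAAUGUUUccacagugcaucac
Of 1679 mature mouse miRNA names in the RefSeq table used, the miR-103-3p seed was shared by miR-107-3p alone. Both seeds of Mir33 stood alone. Mir103-1 and Mir103-2 make an identical 3p strand of 23 bases, from which miR-107-3p differs by G22C, counted from 1 at the 5′ end with the miR-103-3p base first. The 5p arms differ from each other by G1A between miR-103-1-5p and miR-103-2-5p, and by C16U between miR-103-2-5p and miR-107-5p.

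These letters bear directly on the counts, since the deposited tables gave reads that matched several genomic places to no gene. A read that starts at the 5′ end of the miR-103-3p arm was found in 3 hairpins at every length up to 21 bases, those of Mir103-1, Mir103-2 and Mir107. From 22 to 24 bases it was found in the 2 Mir103 hairpins. Only from 25 bases, 2 bases past the annotated end, did it belong to 1 hairpin. A read of miR-107-3p belonged to Mir107 alone from 22 bases, within its annotated 23. The 5p arms were distinct from 16 bases, the shortest length tried. For the 2 Mir103 genes this rested on the first base, since without it the 5p read became distinct only at 24 bases. Both arms of Mir33 were distinct from 16 bases. The search covered exact matches in 1005 RefSeq miRNA hairpins, none of them on chromosome 18, and not the genome. The Mir103 counts thus leave out annotated-length miR-103-3p reads, and they are no measure of miR-103 in the tissue.

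**Figure D1:**
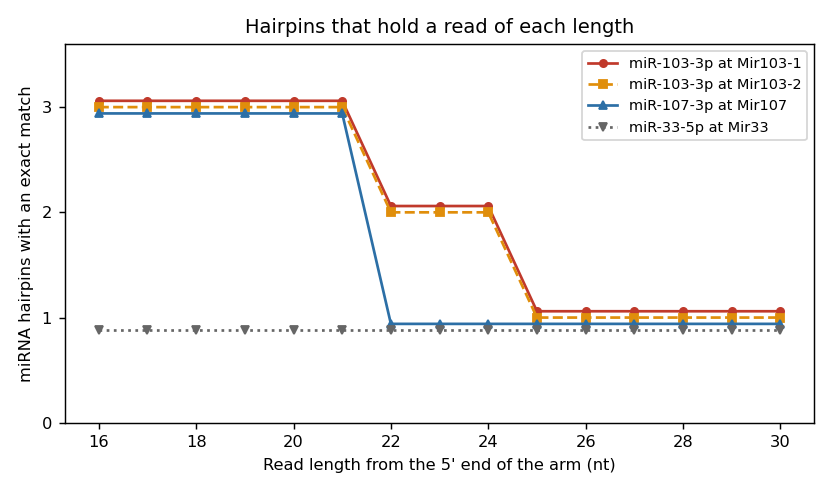
Number of miRNA hairpins (y axis) that hold an exact copy of a read starting at the 5′ end of a mature arm, by read length in nucleotides (x axis), with the lines drawn slightly apart so that they can be seen. The miR-103-3p reads matched 3 hairpins up to 21 nucleotides and 2 up to 24, the miR-107-3p reads matched 1 from 22, and miR-33-5p matched 1 throughout.

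Levels are given in CPM, a gene's counts scaled to a library total of 1000000 on the own strands of all listed genes, as mean ± SD over 2 pups. Small RNA reads hold a whole mature strand, so no correction for length was made. Ligation and amplification favour some small RNAs, so an order between genes also holds that preference. All 5 were detected, at 2 CPM or more in both pups, against 20.6% of the 1973 listed genes. In whole tissue, fewer cells that express a gene and less RNA per cell cannot be told apart.

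Of the Pank-hosted genes, Mir107 carried nearly all the assigned counts. Mir107 had 3276 CPM in pup 3, against 3296 CPM in pup 1 (mean 3286 ± 13.6 CPM, n = 2), from 20441 and 16169 counts. The pups were nearly equal, and the gene ranked 65 among own-strand levels. Mir103-2 had 25.8 CPM in pup 3, against 92.7 CPM in pup 1 (59.3 ± 47.3 CPM, n = 2), from 161 and 455 counts. Mir103-1 had 2.40 CPM in pup 3, against 9.78 CPM in pup 1 (6.09 ± 5.22 CPM, n = 2), from 15 and 48 counts. Both Mir103 genes were low, and lower in pup 3. Mir107 made up 99.1% of the counts of the 3 Pank-hosted genes in pup 3 (exact Clopper-Pearson 95% interval 99.0 to 99.3) and 97.0% in pup 1 (96.7 to 97.2). The 3 genes together had 3305 CPM in pup 3, against 3398 CPM in pup 1 (3351 ± 66.1 CPM, n = 2), or 0.335% ± 0.00661 of all own-strand counts. Because annotated-length miR-103-3p reads go to no gene while miR-107-3p reads of 22 bases or more go to Mir107, the gap between them does not measure how much of each miRNA the hindbrain held.

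Of the few counts assigned to the 2 Mir103 genes, Mir103-2 held most in both pups. Mir103-1 had 8.52% of them in pup 3 (15 of 176 counts, exact Clopper-Pearson 95% interval 4.85 to 13.7) and 9.54% in pup 1 (48 of 503 counts, 7.12 to 12.5). The mean share was 9.03% ± 0.721 (n = 2), and the intervals overlapped. Mir103-2 had 10.7 times the CPM of Mir103-1 in pup 3 and 9.48 times in pup 1. The windows of 22 bases that occur in no other hairpin were 55 of 65 in Mir103-2 and 57 of 65 in Mir103-1. These windows cover the whole hairpin, loop and flanks included, and not only reads that start at an arm. They therefore cannot decide how shared reads affect the ratio. A read of up to 24 bases from the 5′ end of miR-103-3p lies in both Mir103 hairpins, so the share and the ratio leave such reads out.

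Mir33, the Srebf2 intronic miRNA that acts on cholesterol export, stood in the middle of the range. It had 236 CPM in pup 3, against 164 CPM in pup 1 (200.3 ± 51.2 CPM, n = 2), from 1475 and 805 counts. The higher value was in pup 3, and the gene ranked 195. All 48 windows of 22 bases in its hairpin occurred in no other RefSeq hairpin searched, so copies among those hairpins do not limit this count.

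Mir378a had the most assigned counts of the 5, in an order that leaves out the shared reads of the Mir103 genes and of Mir107. It lies on the minus strand of chromosome 18, as does its host Ppargc1b, in intron 1 of 11, an intron of 76981 bases with no annotated exon of the host over the hairpin. It had 3808 CPM in pup 3, against 3456 CPM in pup 1 (3632 ± 249 CPM, n = 2), from 23757 and 16958 counts. At this level it would rank 59 among own-strand levels. Gm25301 had 0 counts on its own strand in both pups, while its opposite strand, on which Mir378a lies, ranked 4 of all listed genes by opposite-strand level. The annotated Mir378a hairpin of 66 bases lies wholly within the 113 bases of Gm25301. The other 4 genes had 0 opposite-strand counts in both pups. Which of its reads other hairpins also hold was not analysed here, so its level and those of its relatives may leave out shared reads. The related genes Mir378d, Mir378c and Mir378b, elsewhere in the genome, had lower own-strand values. Mir378d had 7.85 CPM in pup 3, against 6.32 CPM in pup 1, Mir378c had 2.40 and 3.26 CPM in pup 3 and pup 1, and Mir378b had 4 counts in pup 3 and 0 in pup 1.

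**Figure D2:**
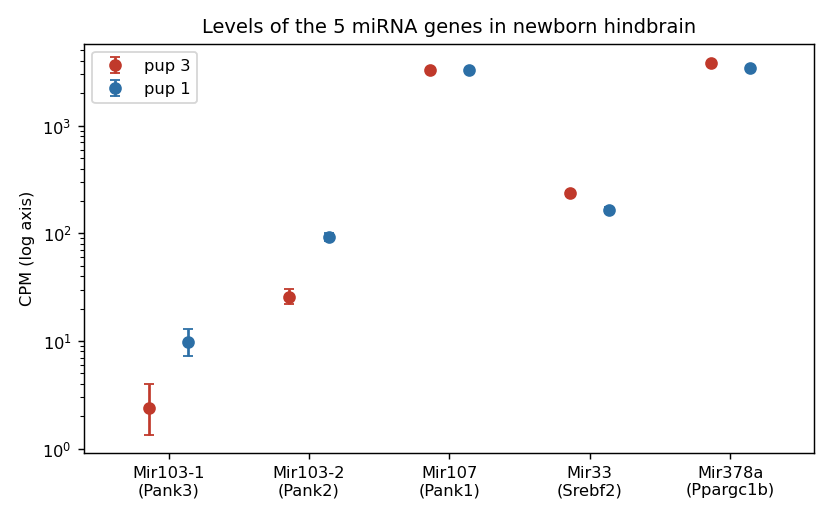
CPM (log axis) of the 5 genes, with their hosts in brackets, in pup 3 (red) and pup 1 (blue). Points are single libraries and bars are exact Poisson 95% intervals of the count, hidden by the point where narrow. Mir107 and Mir378a lie highest in both pups, and both Mir103 genes lie lower in pup 3, with intervals that do not overlap.

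By counts assigned to a single gene, the order was Mir378a, Mir107, Mir33, Mir103-2 and Mir103-1 in each pup. The Mir103 genes come last in counts that leave out their shared reads, so their place is not one of miR-103 in the tissue. Mir378a and Mir107 were close, with Mir378a at 1.16 times Mir107 in pup 3 and 1.05 times in pup 1. Their pup values did not overlap, but a preference in ligation of this size cannot be told apart from a difference in level. The Mir107 counts also leave out miR-107-3p reads shorter than 22 bases, which the Mir103 hairpins share. Shared reads of Mir378a were not analysed, so the order of Mir378a and Mir107 is one of assigned counts only. Mir107 did not differ beyond the spread of the pups from the genes next to it, Mir872 at 3305 ± 518 CPM and Mir130b at 3279 ± 75.1 CPM (n = 2 each). Next to Mir378a were Mir129-2 at 3695 ± 381 CPM and Mir128-1 at 3587 ± 457 CPM, next to Mir33 were Mir1249 at 200.4 ± 36.3 CPM and Mir363 at 189 ± 6.16 CPM, and next to Mir103-2 were Mir20b at 60.5 ± 20.8 CPM and Mir26a-2 at 58.4 ± 7.85 CPM. The pup values of Mir378a lay within those of Mir129-2 and Mir128-1, and those of Mir33 and Mir103-2 reached past their neighbours' on both sides. Mir103-1 lay between Mir3105 at 6.18 ± 0.0965 CPM and Mir491 at 6.00 ± 0.127 CPM. With 2 libraries, likeness of pattern to other genes was not computed.

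**Figure D3:**
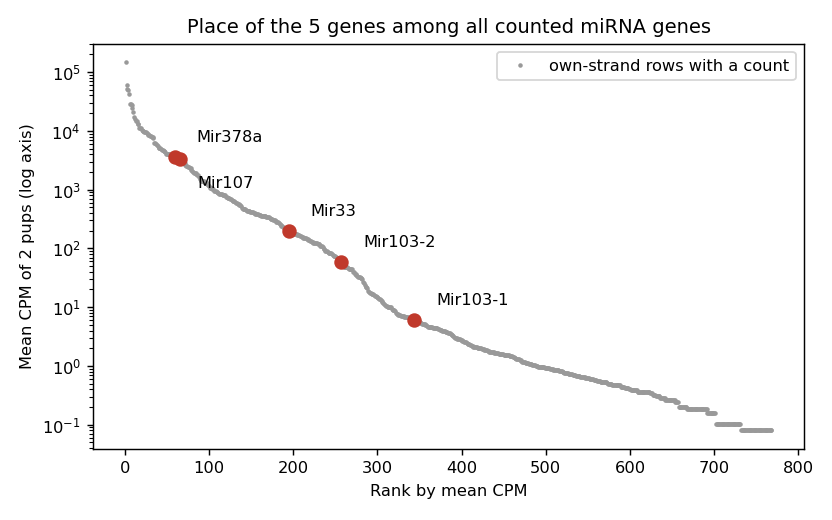
Mean CPM of 2 pups (log axis) against rank for the own-strand miRNA genes with a count (grey), with the 5 genes in red. Mir378a, from the opposite strand of Gm25301, and Mir107 lie side by side at ranks 59 and 65, Mir33 at 195, Mir103-2 at 257 and Mir103-1 at 344.

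Between the libraries, the 2 Mir103 genes were lower in pup 3 by more than counting error, and the other 3 differed by less than 2-fold. Each gene was tested with an exact binomial test against TMM effective library sizes over 509 genes, and called at a Benjamini-Hochberg adjusted p under 0.05 and a 2-fold difference. Of all 509 genes, 5.7% were called lower in pup 3 and 6.68% in either direction. Of the 5, 2 were called, both lower. At any fold, 47.7% of the 509 passed the adjusted p, so passing it was common. The median log2 difference of the 5, pup 3 minus pup 1, was 0.13, against -0.02 for all tested genes.

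Mir103-2 had a log2 difference of -1.67 with a counting SE of 0.13 (exact binomial test, adjusted p = 1.10e-42). In size it ranked 4 among 408 detected genes. Mir103-1 had a log2 difference of -1.55 with a counting SE of 0.43 (exact binomial test, adjusted p = 5.20e-06), and ranked 6. With so few counts its size depended on the pseudocount, at -1.85 with 0.1 CPM and at -0.93, under 2-fold, with 5 CPM. Log2 differences hold a pseudocount of 1 CPM, which draws those of low genes towards 0, and the ratios given here do not. The TMM-scaled ratio of pup 3 to pup 1 was 0.306 for Mir103-2 (exact 95% interval 0.254 to 0.367) and 0.270 for Mir103-1 (0.141 to 0.491). These intervals overlapped and lay wholly below those of the other 3 genes.

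Mir33 had a log2 difference of 0.66 with a counting SE of 0.06 (exact binomial test, adjusted p = 4.62e-26), a ratio of 1.59 (exact 95% interval 1.45 to 1.73) that did not reach the 2-fold rule. Mir378a had a ratio of 1.21 (1.19 to 1.24, log2 difference 0.28). Mir107 had a ratio of 1.09 (1.07 to 1.12, log2 difference 0.13) on TMM scaling, but its direction turned to a log2 difference of -0.0084 on library totals. Among detected genes, log2 differences had a median size of 0.28, so Mir107 differed less than most and Mir33 more. Mir107 and the Mir103 genes thus differed in their ratio between the pups, and the mRNAs of their hosts were not measured here.

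**Figure D4:**
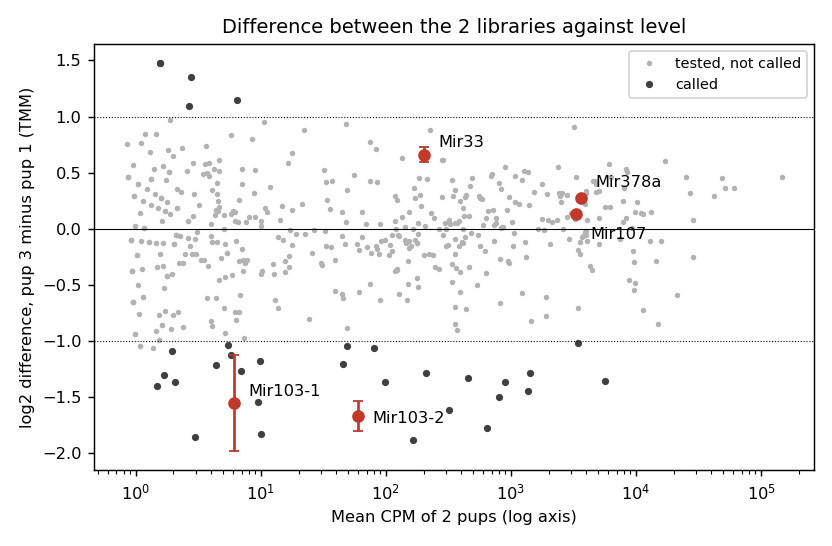
The log2 difference, pup 3 minus pup 1 on TMM scaling with a pseudocount of 1 CPM (y axis), against mean CPM (log x axis) for 509 tested genes. Grey points were not called and dark points were, red points are the 5 genes with counting SE, and dotted lines mark 2-fold. Both Mir103 genes lie below the lower line, at -1.55 and -1.67, and the other 3 lie between the lines.

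Tested genes were then counted by whether another hairpin also holds one of their mature arms, as both Mir103 hairpins do for miR-103-3p, with no test of the difference. Of the tested genes, 436 had a RefSeq hairpin in the table used. Of the 50 with an arm that also occurs in another hairpin, 11 (22%) were called lower in pup 3 and 0 higher, with a median log2 difference of -0.15. Of the other 386, 13 (3.37%) were called lower and 4 higher, with a median of -0.00025. Mir103-1 and Mir103-2 are among the 11. Reads at several genomic places were 39.4% of listed reads in pup 3 and 37.9% in pup 1, and unmapped reads were 13.9% and 17.7% of them in pup 3 and pup 1. Of the neuron markers, 2 of 6 tested were called lower in pup 3, beside 5.7% of all tested genes, with a median of -0.37. Mir124a-1 had a log2 difference of -1.54, from 25 and 73 counts in pup 3 and pup 1. Mir124a-3 had -1.36, from 4 and 17 counts. Mir9-2 at -0.41 and Mir9-3 at -0.34 were not called. Mir137 at 0.14 and Mir124a-2 at 0.16 went the other way. Reads that the Mir124a copies share, or the Mir9 copies, go to no gene here. The leukocyte and microglia markers summed to 625 CPM in pup 3, against 873 CPM in pup 1. Of these 3, 0 were called, beside 6.68% of all tested genes, from which nothing is read. The neuron list summed to 11733 CPM in pup 3, against 11923.5 CPM in pup 1, most of it Mir137. The part of these values in the Mir103 difference was not tested.

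The strands miR-103-3p and miR-107-3p belong to the AGCAGC group, miRNAs related to miR-15 and miR-16 that carry these letters at the start of the mature strand and are known to slow the cell cycle and to act on metabolic targets. The letters begin at base 1 in miR-103-3p and miR-107-3p and at base 2 in the others, as in these strands (seed in capitals).
miR-15a-5p: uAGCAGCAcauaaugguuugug
miR-16-5p: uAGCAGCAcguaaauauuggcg
miR-195a-5p: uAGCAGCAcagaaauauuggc
miR-322-5p: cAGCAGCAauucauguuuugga
Searched on the mature strand only, AGCAGC began at base 1 or 2 in 13 of the 1679 mature names (0.774%). Those outside the list, miR-6342, miR-6353 and miR-6419, had 0 counts in both pups (named after their values were seen).

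Of 12 listed genes of this group with an entry, 10 were detected. The group summed to 21313 CPM in pup 3, against 21203.5 CPM in pup 1 (21258 ± 77.4 CPM, n = 2). Mir322 led it with 9509 CPM in pup 3, against 7367 CPM in pup 1, followed by Mir15a with 3964 and 4144 CPM in pup 3 and pup 1. Mir107 and then Mir195a came next, Mir195a with 2090 CPM in pup 3, against 2206 CPM in pup 1. The genes called lower in pup 3 were 3 of the 10 tested, Mir16-2, Mir103-2 and Mir103-1, beside 5.7% of all tested genes, and 0 were called higher. Mir16-2 had 241 CPM in pup 3, against 668 CPM in pup 1 (log2 difference -1.33), and its partner Mir16-1, with an identical 5p strand, had 1321 CPM in pup 3, against 2489 CPM in pup 1 (log2 difference -0.77, under 2-fold). The 6 other detected genes, Mir322, Mir15a, Mir107, Mir195a, Mir15b and Mir503, had log2 differences from -0.12 to 0.51. The 4 genes whose AGCAGC strand occurs in 2 hairpins had the 4 lowest log2 differences of the 10. They are 2 pairs of copies, Mir103-1 with Mir103-2 and Mir16-1 with Mir16-2. The part of shared strands in these differences was not tested.

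**Figure D5:**
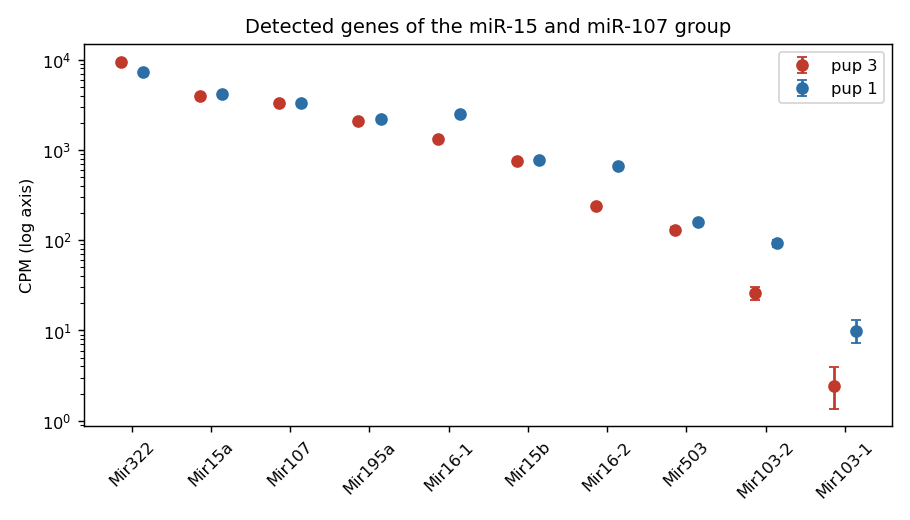
CPM (log axis) of the 10 detected genes of the AGCAGC group, in order of mean level, in pup 3 (red) and pup 1 (blue), with exact Poisson 95% intervals. In CPM, which is scaled to library totals, Mir322 stands higher in pup 3 and the others lower. The gap on the log axis is largest for Mir16-1, Mir16-2, Mir103-2 and Mir103-1. On the TMM scaling of the log2 differences, Mir15a, Mir107, Mir195a and Mir15b were slightly higher in pup 3. Mir107 lies at 3276 and 3296 CPM in pup 3 and pup 1.

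Other miRNA genes inside metabolic genes were detected at a share near that of all listed genes. By a list of metabolic host families, 17 further listed miRNA genes lay within such a host on the same strand, and 3 of them (Mir335, Mir345 and Mir6900) were detected, beside 20.6% of all listed genes. Mir335, in the imprinted gene Mest, had 28679 CPM in pup 3, against 25356.5 CPM in pup 1. Mir345, in the mitochondrial carrier gene Slc25a47, had 117 CPM in pup 3, against 134 CPM in pup 1. Mir6900, in Ndufa10, a gene of respiratory complex I, had 4.49 CPM in pup 3, against 3.26 CPM in pup 1. Srebf1, the relative of Srebf2 that drives fatty acid synthesis, holds Mir6921 and Mir6922, and both stayed at 1 count in pup 3 and at 3 and 1 counts in pup 1. Of the 17, 7 had 0 counts in both pups, beside 1205 of all 1973 listed genes. Of the 4 tested, 0 were called between the pups, beside 6.68% of all tested genes, from which nothing is read.

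Other miRNAs known to act on lipids spanned 21.9 to 3587 CPM in mean level, a range that holds Mir33. All 15 listed genes of the lipid and cholesterol list were detected, beside 20.6% of all listed genes, and 0 were called between the pups, beside 6.68% of all tested genes. Nothing is read from a count of 0 in a list of this size. Both lists hold miRNAs picked as known, so their share detected is a description. The median log2 difference of the list was 0.06, against -0.02 for all tested genes. Mir128-1, which lowers the low-density lipoprotein receptor, led with 3264 CPM in pup 3, against 3910 CPM in pup 1. Mir370 followed with 1735 CPM in pup 3, against 1929 CPM in pup 1, then Mir128-2 with 1571 and 1728 CPM and Mir27b with 1115 and 1041 CPM in pup 3 and pup 1. Of 13 genes of the fat and insulin list, 9 were detected. No count in either pup was found for 2 of the 13, beside 1205 of all 1973 listed genes. Of the 9 tested, 0 were called, beside the same 6.68%, from which nothing is read. Besides Mir335, its most abundant members were Mir143 with 9362 CPM in pup 3, against 7121 CPM in pup 1, Mir375 with 459 and 465 CPM, and Mir455 with 319 and 457 CPM in pup 3 and pup 1.

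Own-strand gene counts summed to 6238680 in pup 3 and 4906127 in pup 1, and the limit taken for 0 counts, 3 counts of the total, was 0.481 CPM in pup 3, against 0.611 CPM in pup 1 (counting error only). The Hox-cluster miRNAs listed as hindbrain markers, Mir10a, Mir10b and Mir196b, were all detected, with 34669.5 CPM in sum in pup 3 and 52123 CPM in pup 1. Their log2 differences were -0.25 for Mir10a, -0.85 for Mir10b and -0.14 for Mir196b. Of 4 muscle markers with an entry, 3 (Mir133a-1, Mir133a-2 and Mir1a-1) had 0 counts in both pups, beside 1205 of all 1973 listed genes. The muscle list summed to 157 CPM in pup 3, against 172 CPM in pup 1, all of it Mir206. The strands miR-1a and miR-133a are each known to come from 2 gene copies, whose shared reads go to no gene here, so these 0 counts do not show that muscle RNA was low. Mir133b, outside the list and named after its values were seen, had 16 counts in pup 3, against 7 in pup 1. The liver marker Mir122 had 45.2 CPM in pup 3, against 44.6 CPM in pup 1. The 3 blood markers summed to 308 CPM in pup 3, against 498 CPM in pup 1, most of it Mir451a (log2 difference -0.70). Mir144 at 0.88 and Mir486 at 0.22 went the other way. Of the 3, 0 were called, beside 6.68% of all tested genes, from which nothing is read. These lists are given because miR-378a and miR-33 are known from muscle and liver, and the part of such tissue in the levels of Mir378a and Mir33 was not tested.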

How the data were processed

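The authors deposited 1 table per library of raw counts, whole numbers for each miRNA gene, neither normalized nor pooled. Assembly mm10 and annotation M4 are per the text deposited with each table. The aligner and the counter are not given in the sources used. Columns hold reads on any strand, the gene's own strand and the opposite strand. Entries that name no gene (unmapped, several places, no feature) were left out. They are 54.9% of listed reads in pup 3 and 58.3% in pup 1. IDs were matched without version to GENCODE M21, and 1894 of 1973 matched. Sequences are from RefSeq (GRCm38.p6), without those of chromosome 18.

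Effective library sizes came from edgeR 4.0.16 (TMM, ratio of pup 3 to pup 1 of 1.16), with DESeq2 1.42.0 size factors as an alternative. The exact binomial test (scipy 1.17.1, two-sided) covered every gene whose counts summed to 10 or more, Mir378a added. Log2 differences used a pseudocount of 1 CPM, and so did the 2-fold rule, a choice made after seeing the data. The calling step was tested on simulated data. Alternatives covered scaling, filter, strand column, denominator, pseudocount and single pups. Named genes are the 5, their neighbours in level, and up to 4 leading members per list, and others are marked or were named to complete a count. The members, lists and rules were chosen with earlier results of these data known.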

Additional observations from a re-analysis of the deposited data

Results flagged for a closer look

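Mir497b, listed with the AGCAGC group, had 1257 CPM on its opposite strand in pup 3 and 1121 CPM in pup 1, a column from which the report takes a level for Mir378a alone. Its own strand had 1 count in each pup. The values lie above the level that 0 counts allow. The other strand holds Mir497, which has no entry of its own, so the group sums above leave it out.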

How the results depend on the processing

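Detection of all 5 genes held at 1 CPM, at 5 counts and on any strand, and 4 were detected at 10 CPM. The summed level of the Pank-hosted genes (3351 CPM) moved to 3244 CPM with reads on any strand, 3926 CPM without the most abundant gene in the denominator and 1407 CPM per 1000000 of all listed reads, and was 3305 to 3398 CPM with 1 pup left out. The share of Mir103-1 was 8.52% to 9.54% with 1 pup left out. Genes called between the libraries were 34 (29 lower and 5 higher in pup 3), 42 (38 and 4) on library totals, 33 (25 and 8) with DESeq2 size factors, and 18 (18 and 0) when 100 or more counts were required. That filter left 318 genes and removed Mir103-1, so that 1 of the 5 was called in place of 2. Library totals moved the median log2 difference of tested genes by -0.14, and there Mir107 turned to -0.0084 (exact binomial test, adjusted p = 0.692). In alternatives chosen after seeing the data, the 2-fold rule gave 38 calls (32 and 6) with no pseudocount, and 17 (17 and 0) with 5 CPM in place of 1 CPM, where 1 of the 5 was called and Mir103-1 was not. Mir103-2 was called under every scaling, filter and pseudocount tried. No paired analysis was possible because the series holds 1 group. Depth limits Mir103-1 most, at 15 counts in pup 3.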
